A study of Rattus norvegicus with 6 samples.

Results

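The genes described here are those that carry out the citrate cycle and the reactions around pyruvate, measured by RNA-Seq in the left ventricular myocardium of transplanted rat hearts. Members were all genes whose KEGG annotation in the deposited table named the citrate cycle or pyruvate metabolism, leaving out genes that it also placed in oxidative phosphorylation or fatty acid degradation and the lactate dehydrogenases. Of 22250 genes in the table, 58 lay in either pathway, 18 were left out by these exclusions and 40 were members. The citrate cycle held 26 of them and pyruvate metabolism 25, with 11 in both. After a filter on low counts, 37 members were tested among 13784 genes. The 3 that did not pass it had almost no reads: Pklr, the liver and red cell pyruvate kinase, had 0 in every heart, Pdha2, the testis form of the pyruvate dehydrogenase alpha subunit, had 0 to 4, and Pck1, the cytosolic PEP carboxykinase, had 0 to 1.

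All 6 libraries came from Sprague-Dawley rats labelled wild type (WT), and each was taken on postoperative day 1 of heterotopic heart transplantation. The young group held 3 donor hearts from rats of 10 weeks and the aged group 3 donor hearts from rats of 1 year. Every heart had been kept cold between harvest and transplantation, and every recipient was young. Tissue from hearts that were not transplanted was not analysed here, so an age difference that was there before transplantation and one that arose after it cannot be told apart. A heterotopic graft beats without a normal load, and it is perfused by the recipient's blood.

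The citrate cycle oxidizes acetyl-CoA in the mitochondrial matrix and hands the electrons to the respiratory chain, and heart muscle, which is packed with mitochondria, depends on it for nearly all of its ATP. Pyruvate enters through the pyruvate dehydrogenase (PDH) complex, and fatty acids, lactate and ketone bodies feed the same acetyl-CoA pool. Other enzymes of these pathways work in the cytosol, where citrate can be split again into acetyl-CoA for lipid synthesis, and a few remove methylglyoxal, a reactive by-product of glycolysis.

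Library totals ran from 21457509 to 24560869 counts, so 3 counts corresponded to 0.0985 to 0.191 CPM (read counts per gene at a common library size, scaled by TMM). Young heart 3 stood apart from the other young hearts before any comparison was made: on the first principal component, which held 77.1% of the variance, it lay at 10.4, while young hearts 1 and 2 lay at -114 and -121 and aged hearts 1, 2 and 3 at 116, 49.9 and 58.1. Transcripts of the 13 mitochondrial genome genes took 21.7% of the counts in each of young hearts 1 and 2, 11.9% in young heart 3 and 6.57% to 10.3% in the aged hearts. Cardiomyocyte markers also differed between these hearts. Myh6, the alpha myosin heavy chain, had 26870, 29950 and 1085 CPM in young hearts 1, 2 and 3 and 13.6, 515 and 323 in aged hearts 1, 2 and 3. The summed level of 11 cardiomyocyte markers was 13720 to 113200 CPM in young and 622 to 8499 CPM in aged hearts. Neutrophil markers summed to 17 to 145 CPM in young and 356 to 1357 CPM in aged hearts, with 7 of 9 tested higher past the limits given in the next paragraph, and macrophage markers to 341 to 2439 CPM and 3835 to 7424 CPM, with 4 of 10 higher. T cell markers summed to 3.31 to 58.1 CPM in young and 70.4 to 108 CPM in aged hearts. Cd8a, which was not called, made up most of that sum in young heart 3 (55.8 CPM) and the aged hearts (63.8 to 99.0 CPM). Of 4 tested T cell markers 1 was higher, Cd2, and only Cd3g had a negative log2 fold change (-0.37). Endothelial markers summed to 735 to 1143 CPM and 661 to 979 CPM, with 0 of 4 past the limits in edgeR. Fibroblast markers summed to 2519 to 3819 CPM and 938 to 2140 CPM. Of 5 tested, 1 was lower, Col1a1 (-1.61), and only Pdgfra had a positive value (0.81). Beside the counts of these marker lists, 19.0% of all genes tested were lower and 13.2% higher past the limits. The skeletal muscle markers stayed low, Myh4 between 0.0379 and 0.847 CPM and Actn3 between 0.413 and 0.890 CPM. In such bulk tissue, fewer cardiomyocytes and less RNA per cardiomyocyte cannot be told apart.

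Most enzymes of the citrate cycle and the PDH complex were expressed at lower levels in aged than in young donor hearts, and among the members only ATP citrate lyase was higher past the limits. The study used fold limits of 0.67 and 1.5 with a p under 0.05 and does not say whether that p was adjusted. Here a gene was counted as lower with a fold change under 0.67 and as higher with one over 1.5. Either call needed an unadjusted p under 0.05 in edgeR's quasi-likelihood test. By this rule 26 of 37 members (70.3%) were lower in aged hearts, beside 19.0% of all genes tested, and 1 member (2.7%) was higher, beside 13.2%. The median log2 fold change, aged over young, was -1.86 for the members and 0.016 for all genes. An unadjusted p under 0.05 was reached by 28 members (75.7%) and by 34.3% of all genes. After Benjamini-Hochberg adjustment over all 13784 genes, edgeR left 0 members and 0.0% of all genes under 0.05. The adjusted p of the 26 lower members ran from 0.0916 to 0.137. With DESeq2's Wald test 25 members (67.6%) were under an adjusted p of 0.05, beside 26.1% of all genes with an adjusted value, and with limma-voom and sample quality weights 36 members (97.3%), beside 61.1%. The 3 tools thus gave different counts for the same hearts.

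**Figure D1:**
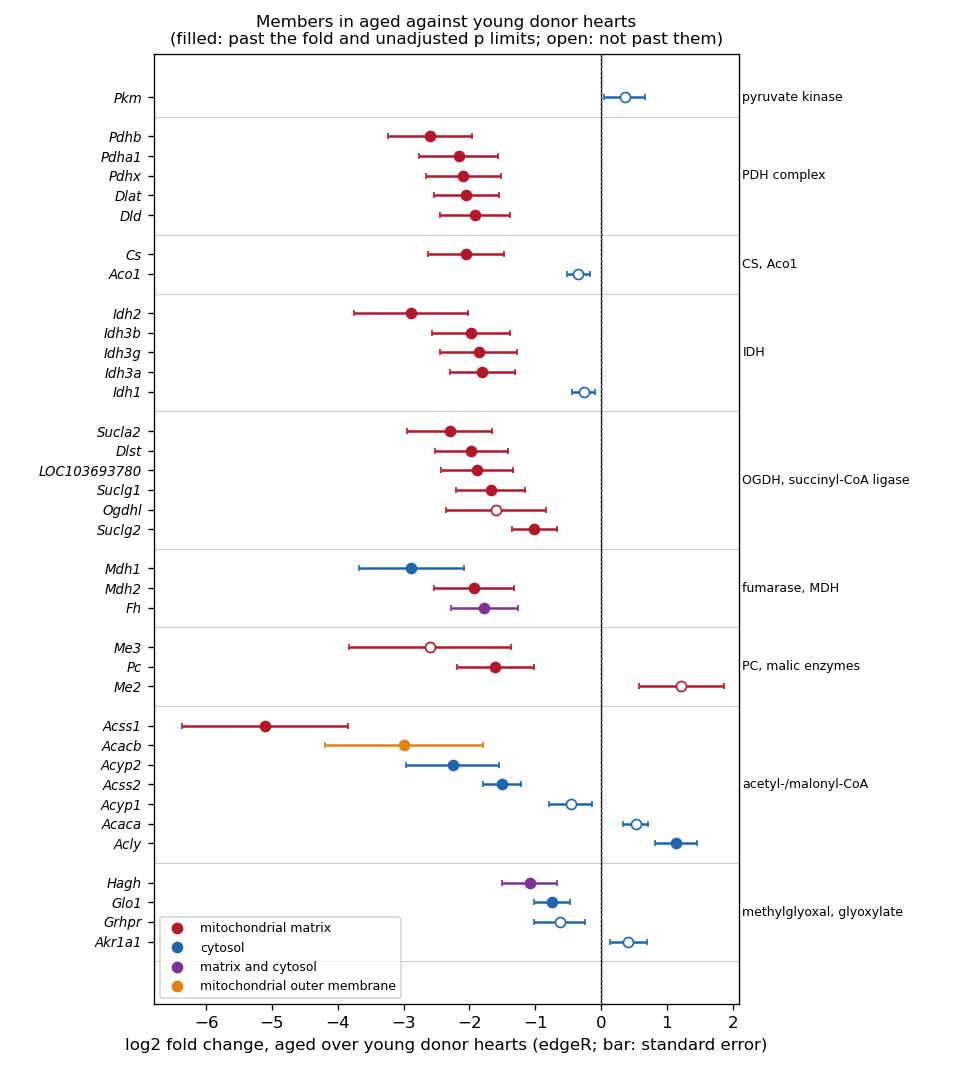
Fitted log2 fold change of 36 of the 37 tested members, aged over young donor hearts (3 and 3 hearts), with its standard error, grouped by step of the pathway and coloured by the compartment of the enzyme. Filled points passed the fold and unadjusted p limits, and the dotted line marks the median of all genes tested (0.016). The 5 PDH complex members lie between -2.61 and -1.92, while Acss1 lies at -5.10 and Acly at 1.14.

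The lower members were mostly enzymes of the mitochondrial matrix. Of 22 tested members that work in the mitochondrial matrix, 19 were lower and 0 higher in edgeR, and 19 had every aged heart below every young heart. The median log2 fold change of the matrix members was -1.97. Of 12 tested cytosolic members 4 were lower and 1 higher, with a median of -0.40. Both enzymes that work in the matrix and the cytosol, Fh and Hagh, were lower, as was Acacb of the outer membrane. Members in the citrate cycle numbered 24 tested with 20 lower, while 6 of the 13 tested members in pyruvate metabolism alone were lower. Beside these counts, 19.0% of all genes tested were lower and 13.2% higher, and 20.6% had every aged heart below every young heart. The compartments were assigned from textbook knowledge, and the difference between them was not tested.

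To show the start regions of members that moved in opposite directions, 30-base stretches around a GC box upstream of the start are given for Cs and Mdh2, both lower, and for Acly, the member that was higher (RefSeq, build GRCr8, transcript strand, with the GC box in capitals). The box shown begins 140, 160 and 135 bases before the start, and the windows of Cs and Acly hold further boxes.
Cs, chr7:1348237-1348266, plus strand: gtacccaaagagGGGCGGgctcaagtattg
Mdh2, chr12:26543984-26544013, minus strand: gatctcggaagtGGGCGGagcccagacccg
Acly, chr10:85963749-85963778, minus strand: ggtcaggcatgaGGGCGGggccaccgcagc

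Windows from 250 bases before to 50 bases after the start were found for 35 of 40 members, and Idh3a, Pc, Acss1 and Acaca were among the unmatched. The GC box, GGGCGG on either strand, lay in 22 of 35 members' windows (62.9%), in 61.9% of the windows of genes tested and in 36.0% of all windows. It was in 15 of the 22 windows of lower members and in 7 of the 13 others. The others, and the 35, include Pklr, Pdha2 and Pck1, which were not tested and have no GC box in their windows. CACGTG, the E box, lay in 3 members' windows (8.57%, Pdhb, LOC103693780 and Ogdhl), beside 9.66% of tested and 7.08% of all windows. The estrogen-related receptor element, searched as TNAAGGTCA on either strand, was in 0 of 35, beside 0.645% of tested and 1.26% of all windows. The NRF1 site was in 0 of 35 as well, beside 1.82% of tested and 0.954% of all windows. None of the 4 motifs searched lies within another. A match describes the letters of the window only.

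At the entry to the cycle, all 5 tested members of the PDH complex were lower in aged hearts. The complex decarboxylates pyruvate to acetyl-CoA and commits carbohydrate carbon to oxidation. Pdhb, the beta subunit of its first enzyme, had 583, 651 and 140 CPM in young hearts 1, 2 and 3 and 43.6, 92.6 and 89.5 CPM in aged hearts 1, 2 and 3. Its mean was 458 ± 277 CPM in young and 75.2 ± 27.4 CPM in aged hearts (SD, n = 3 each). The groups did not overlap, and the lowest young value, in heart 3, lay much nearer to the aged hearts than to its own group. The log2 fold change of Pdhb was -2.61 (SE 0.64; edgeR, unadjusted p = 0.00566, adjusted p = 0.0916). For a single gene the exact permutation test over 3 and 3 hearts cannot go below p = 0.1, the value it gave for Pdhb and for each of the other members whose groups did not overlap.

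The alpha subunit Pdha1 had 999, 1158 and 271 CPM in the young and 110, 209 and 222 CPM in the aged hearts, a log2 fold change of -2.17 (SE 0.60). Pdhx, which binds the third enzyme of the complex to its core, had 196, 231 and 53.2 CPM against 25.5, 46.7 and 40.6 CPM (log2 fold change -2.09, SE 0.56). Dlat, the core acetyltransferase, had 452, 549 and 196 CPM against 54.3, 118 and 118 CPM (log2 fold change -2.04, SE 0.50). None of these overlapped between the groups, and in each young heart 3 was the lowest young and aged heart 1 the lowest of all. Dld, the dihydrolipoyl dehydrogenase that the complex shares with the 2-oxoglutarate dehydrogenase complex, was lower by the smallest amount of the 5 (-1.92). The 5 log2 fold changes spanned 0.69, about the size of a standard error (at most 0.64). Each such error measures the spread of its own gene over the same hearts, and differences between the 5 were not tested. A stretch of Pdha1 overlapped AABR07038021.1 on the other strand by 803 bases, and the use of strand in counting is not given in the sources used here; that gene had 12 to 53 reads per heart.

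The genes that regulate and supply the complex lie outside the membership rule. Of 7 PDH kinases, which switch the complex off, and phosphatases, which switch it on, 5 were lower: Pdk1 (log2 fold change -2.34), Pdk2 (-2.72), Pdp1 (-1.61), Pdp2 (-1.55) and the phosphatase's regulatory subunit Pdpr (-1.86). Pdk3 was higher, with 8.83, 5.91 and 15.2 CPM in the young and 33.7, 18.3 and 23.8 CPM in the aged hearts (log2 fold change 1.33, SE 0.41, unadjusted p = 0.0165, edgeR). Pdk4, the kinase induced by fasting and fatty acids, did not pass the limits and spread most widely, at 304, 387 and 108 CPM in young and 6.996, 221 and 511 CPM in aged hearts. Both subunits of the mitochondrial pyruvate carrier were lower, Mpc1 by -2.44 and Mpc2 by -2.06 on the log2 scale. Lipoate is a cofactor of the complex. Of 5 genes that act directly or indirectly in its supply, Lias (-1.80) and Glrx5 (-1.41) were lower and 3 passed in neither direction.

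Citrate synthase, which opens the cycle by joining acetyl-CoA to oxaloacetate, was lower in aged hearts, while the cytosolic aconitase did not pass the limits. Cs (chr7:2752680-2778963, Rnor_6.0) had 1087, 1362 and 324 CPM in young hearts 1, 2 and 3 and 147, 268 and 252 CPM in aged hearts 1, 2 and 3. Aged hearts lay below young hearts without overlap, and the log2 fold change was -2.06 (SE 0.58, unadjusted p = 0.011, edgeR adjusted p = 0.0924). Aco1, the cytosolic aconitase that also acts as an iron regulatory protein, had 111, 109 and 119 CPM in the young and 84.1, 102 and 81.4 CPM in the aged hearts. The aged values lay below the young ones here too, yet the log2 fold change was only -0.35 (SE 0.17, unadjusted p = 0.0886, edgeR), and it was 0.087 with library totals in place of TMM, under which the median over all genes was 0.46.

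Among the isocitrate dehydrogenases the 4 mitochondrial genes were lower and the cytosolic gene was not called. Idh2 (chr1:141866283-141893705), the NADP-dependent mitochondrial enzyme, had the second highest mean level per length of the members (595 FPKM over the 6 hearts). It had 3182, 3632 and 512 CPM in the young and 130, 438 and 425 CPM in the aged hearts, with no overlap and a log2 fold change of -2.88 (SE 0.87, unadjusted p = 0.0145, edgeR). Its span overlaps the opposite-strand gene Zfp710 by 4043 bases; Zfp710 had 542 to 1805 reads per heart. Idh3a, Idh3b and Idh3g together form the NAD-dependent enzyme that drives the cycle. Idh3b had 610.0, 633 and 151 CPM against 75.4, 147 and 133 CPM (-1.97, SE 0.59). Idh3g had 679.5, 756 and 204 CPM against 82.6, 203 and 167 CPM (-1.86, SE 0.58), with young heart 3 and aged heart 2 almost level. Idh3a had 459, 517 and 152 CPM against 79.2, 124 and 120 CPM (-1.80, SE 0.49). The log2 fold changes of these subunits of a single enzyme lay closer together than their standard errors. Each such error measures the spread of its own gene over the same hearts, and differences between the subunits were not tested. Idh1, the cytosolic NADP-dependent enzyme, had 79.8 to 95.5 CPM in young and 66.3 to 84.2 CPM in aged hearts, which overlapped (-0.27, unadjusted p = 0.18, edgeR; 0.18 by library totals).

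The next steps turn 2-oxoglutarate into succinate and yield GTP or ATP directly, and 5 of their 6 members were lower. LOC103693780 is the 2-oxoglutarate dehydrogenase gene in this table, by its identifier in RefSeq. It had 603, 952 and 236 CPM in the young and 111, 211 and 162 CPM in the aged hearts, a log2 fold change of -1.89 (SE 0.55). Dlst, the succinyltransferase core of the same complex, had 1004, 1175 and 291 CPM against 155, 254 and 221 CPM (-1.97, SE 0.56). In both, the lowest young heart lay just above the highest aged heart. LOC103693780 overlaps LOC103693776 on the same strand and Npc1l1 on the other, which had 61 to 87 and 0 to 9 reads per heart.

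Sucla2, the ATP-forming beta subunit of succinyl-CoA ligase, had 610.5, 701 and 148 CPM in the young and 54.3, 106 and 136 CPM in the aged hearts, a log2 fold change of -2.30 (SE 0.65). Suclg1, the alpha subunit that both forms of the ligase need, had 645, 679 and 209 CPM against 99.3, 205 and 176 CPM (-1.68, SE 0.52). Suclg2, the GTP-forming beta subunit, was lower by the least (-1.01, SE 0.34), with 116 to 256 CPM in young and 78.1 to 113 CPM in aged hearts. Young heart 3 and aged heart 2 were within a few CPM of each other for Suclg1, and leaving out aged heart 1 ended the call for that gene. Ogdhl, a relative of the dehydrogenase known mainly from brain, was at 1.07 to 8.52 CPM in these hearts and was not called (-1.60, unadjusted p = 0.0769, edgeR).

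Fumarase and both malate dehydrogenases, which close the cycle, were lower. Mdh1, the cytosolic malate dehydrogenase of the malate-aspartate shuttle, had 1843, 1880 and 287 CPM in the young and 89.2, 210 and 243 CPM in the aged hearts. Its log2 fold change of -2.89 (SE 0.80, unadjusted p = 0.01, edgeR adjusted p = 0.0923) made it the cytosolic member with the lowest value. Mdh2 (chr12:23941448-23954431), the matrix enzyme, had 1551, 1692 and 487 CPM against 168, 437 and 372 CPM (-1.93, SE 0.60). Fh had 435, 479 and 147 CPM against 65.3, 135 and 111 CPM (-1.77, SE 0.51). Groups did not overlap for any of the 3. The other shuttle genes followed the same direction: Got1 (-2.69), Got2 (-1.75) and the carriers Slc25a11 (-2.06), Slc25a12 (-1.92) and Slc25a13 (-2.31) were lower, while Slc25a10, a dicarboxylate carrier, was not called (-0.28). The succinate dehydrogenase subunits, which the rule left out because they also belong to oxidative phosphorylation, were lower as well, Sdha by -2.17, Sdhb by -2.005, Sdhc by -1.82 and Sdhd by -2.15 on the log2 scale.

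Of the enzymes that refill the cycle or pull malate out of it, only pyruvate carboxylase was called. Pc had 61.2, 58.9 and 20.4 CPM in the young and 7.82, 26.3 and 12.1 CPM in the aged hearts (-1.60, SE 0.59, unadjusted p = 0.0325, edgeR), so that aged heart 2 lay above young heart 3. Its span overlaps opposite-strand Lrfn4 by 3293 bases, which had 263 to 1118 reads per heart and more in young heart 3 and the aged hearts than in young hearts 1 and 2. Me3, the NADP-dependent mitochondrial malic enzyme, had 133, 151 and 27.5 CPM in the young and 0.657, 26.2 and 24.4 CPM in the aged hearts. Aged heart 1 was near 0 while the other aged hearts sat just under young heart 3, and the test did not pass (-2.60, SE 1.23, unadjusted p = 0.0755). Me2, the NAD-dependent mitochondrial malic enzyme, was the only matrix member with a value above 0. It had 9.38, 9.35 and 43.2 CPM in the young and 63.2, 40.6 and 41.0 CPM in the aged hearts, so young heart 3 was inside the aged range (1.22, SE 0.65, unadjusted p = 0.106, edgeR). Without young heart 3, Me2 was higher (log2 fold change 2.40, edgeR adjusted p = 0.0019).

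The enzymes of acetyl-CoA and malonyl-CoA moved in both directions. Acss1 (chr3:146420346-146470293), the mitochondrial acetyl-CoA synthetase that burns acetate, had 837, 926 and 28.2 CPM in the young and 9.72, 16.9 and 25.5 CPM in the aged hearts. Its log2 fold change of -5.10 (SE 1.26, unadjusted p = 0.00591, edgeR adjusted p = 0.0916) was the lowest of all members. Young heart 3 stood 31.2 times below the mean of young hearts 1 and 2 and just above the highest aged heart. Acss2, the cytosolic and nuclear synthetase, had 103, 124 and 60.5 CPM against 30.6, 37.04 and 33.8 CPM. It was lower by less, but with the smallest standard error of the lower members apart from Glo1 (-1.51, SE 0.29), and its unadjusted p of 0.00166 in edgeR was the smallest among the members. Young heart 3 had 1.79 times the aged mean of Acss2 where it had 1.62 times for Acss1.

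Acacb, the acetyl-CoA carboxylase of the mitochondrial surface whose malonyl-CoA restrains fatty acid import, had 614, 672 and 139 CPM in the young and 3.38, 108 and 66.9 CPM in the aged hearts (-2.99, SE 1.20, unadjusted p = 0.044, edgeR). The low value of aged heart 1 widened its error, and the call was lost without young heart 1, young heart 2, aged heart 2 or aged heart 3. Acyp2, an acylphosphatase, had 25.6, 27.2 and 6.40 CPM against 1.68, 4.21 and 6.51 CPM (-2.26, SE 0.70), with aged heart 3 level with young heart 3. Its relative Acyp1 was not called (-0.46).

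Acly (chr10:88392248-88442845), which splits exported citrate into cytosolic acetyl-CoA, was the member that was higher past the limits. It had 65.3, 64.5 and 119 CPM in the young and 223, 175 and 149 CPM in the aged hearts, 82.8 ± 31.0 against 182 ± 37.8 CPM (SD, n = 3 each). The groups did not overlap (log2 fold change 1.14, SE 0.32, unadjusted p = 0.0105, edgeR adjusted p = 0.0923), and every fit that left out a heart kept the call. Acaca, the cytosolic acetyl-CoA carboxylase that uses this acetyl-CoA to build fatty acids, had 26.1 to 37.6 CPM in young and 42.4 to 48.3 CPM in aged hearts (0.53, unadjusted p = 0.0302, edgeR), under the fold limit. Slc25a1, the carrier that exports citrate from mitochondria and no member by the rule, had 7.68, 8.39 and 24.2 CPM against 36.3, 32.1 and 25.4 CPM (1.22, SE 0.48, unadjusted p = 0.0428, edgeR).

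**Figure D2:**
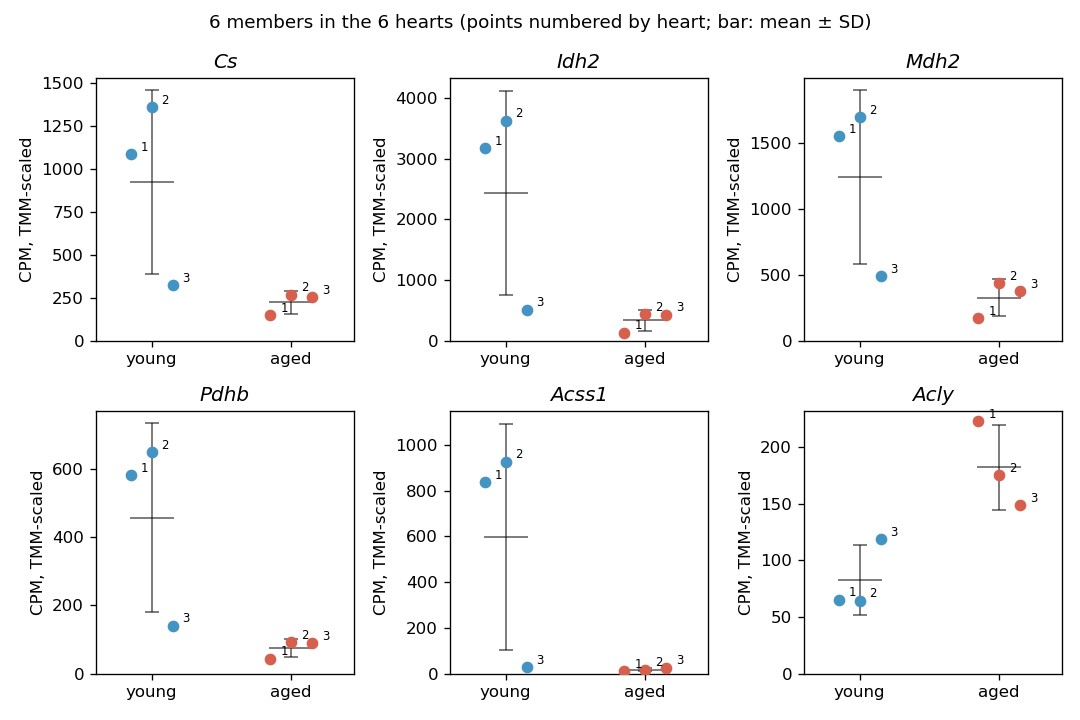
CPM (TMM-scaled, linear axis from 0) of Cs, Idh2, Mdh2, Pdhb, Acss1 and Acly in each heart, young in blue and aged in red, numbered by heart, with the mean and SD of each group of 3. Young heart 3 sits close to the aged hearts in the first 5 panels, at 324 CPM for Cs and 28.2 CPM for Acss1, and between the groups for Acly, at 119 CPM.

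Pyruvate kinase did not pass the limits, and 2 of the 4 methylglyoxal and glyoxylate enzymes were lower. Pkm, the muscle and growth-related pyruvate kinase and the member with the highest mean level per length (775 FPKM), had 1259, 1426 and 1500 CPM in the young and 1724, 1890 and 1753 CPM in the aged hearts. All aged hearts were above all young hearts, yet the fold was under the limit and the test did not pass (0.36, SE 0.31, unadjusted p = 0.289, edgeR). Glo1 and Hagh form the glyoxalase system, which converts methylglyoxal to lactate with glutathione. Glo1 had 108, 100.4 and 57.8 CPM against 46.6, 53.1 and 58.7 CPM (-0.75, SE 0.27, unadjusted p = 0.0308, edgeR), and Hagh had 39.1, 42.4 and 16.3 CPM against 10.4, 19.1 and 16.6 CPM (-1.08, SE 0.42, unadjusted p = 0.039). Both were lower past the limits although aged heart 3 lay above young heart 3 for Glo1, and aged hearts 2 and 3 did for Hagh. Grhpr, which reduces glyoxylate and hydroxypyruvate, had 13.7, 12.5 and 5.95 CPM against 5.12, 8.68 and 7.01 CPM and was not called (-0.62, unadjusted p = 0.154). Akr1a1, an aldehyde reductase, had 327, 322 and 496 CPM against 484, 589 and 454 CPM, overlapped, and was not called (0.42, unadjusted p = 0.19).

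By level per length over the 6 hearts, Pkm (775 FPKM), Idh2 (595), Mdh2 (518), Mdh1 (475), Akr1a1 (375) and Cs (330) led the members. Together the 40 members took 1.83%, 1.97% and 0.824% of all counts in young hearts 1, 2 and 3 and 0.58%, 0.812% and 0.775% in aged hearts 1, 2 and 3, so young heart 3 and aged heart 2 held nearly the same share.

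The order of the hearts was nearly the same for every lower member. Young heart 3 was the lowest young heart and aged heart 1 the lowest of all in 26 of 26, and young heart 2 was the highest in 24. This order was not counted over all genes tested. On the first principal component of those genes, young heart 3 also lay between the other young hearts and the aged hearts. The mean of young hearts 1 and 2 exceeded young heart 3 by a median of 3.68 times (1.8 to 31.2), and young heart 3 exceeded the aged mean by a median of 1.46 times (1.06 to 2.34), by under 1.5 times in 15 of the 26. Aged hearts 2 and 3 exceeded aged heart 1 by a median of 1.93 times. Of the 26 lower members 22 did not overlap between the groups, and Pc, Acyp2, Glo1 and Hagh did. Over all tested members 24 (64.9%) had every aged heart below every young heart, beside 20.6% of all genes, and 3 (8.11%: Acly, Acaca and Pkm) had every aged heart above, beside 21.0%.

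Without young heart 3, edgeR called 30 of the 37 members lower (81.1%), beside 24.2% of 14109 genes tested, and 32 had an adjusted p under 0.05 (86.5%), beside 48.3%. The median log2 fold change of the members was then -2.21. Higher members became 4 (10.8%: Acly, Acaca, Akr1a1 and Me2), beside 26.9%.

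**Figure D3:**
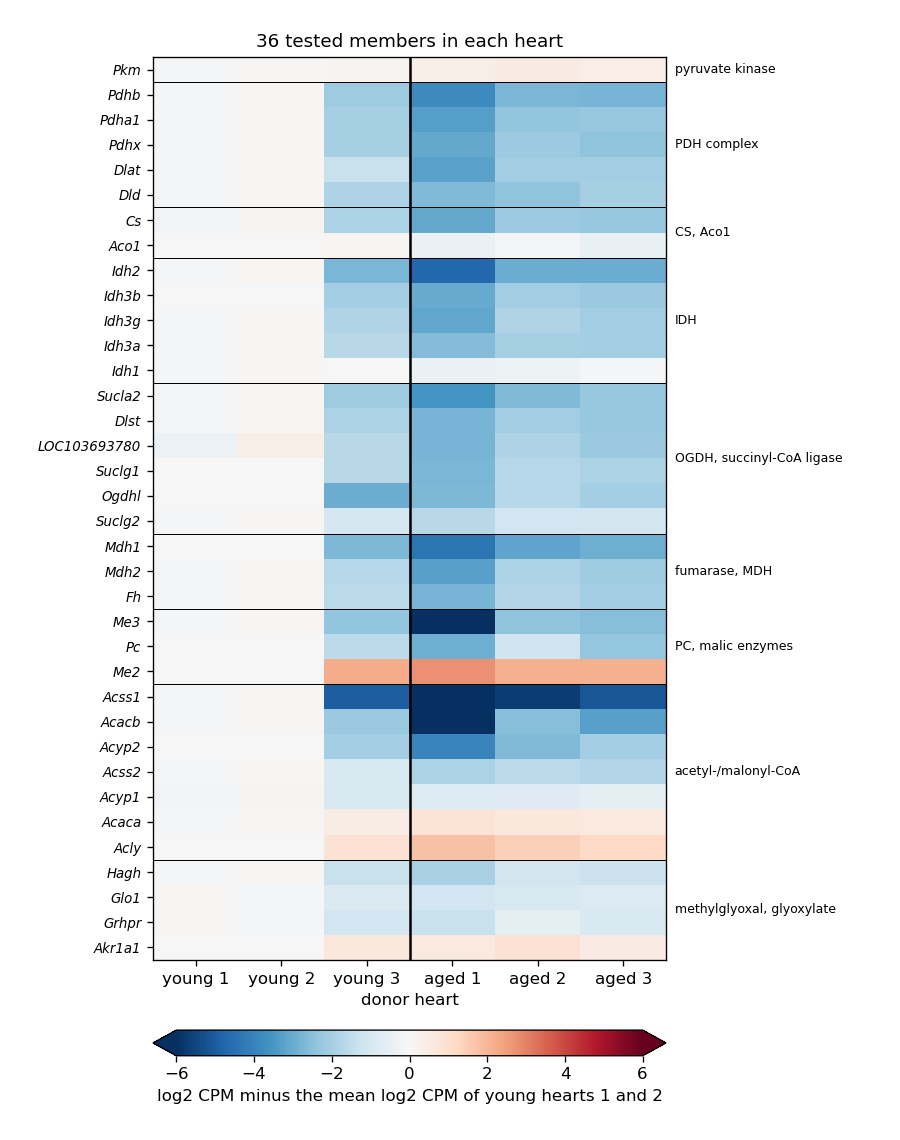
Level of 36 of the 37 tested members in each heart, as log2 CPM minus the mean log2 CPM of young hearts 1 and 2, grouped by step of the pathway; blue is lower, red is higher, and values beyond 6 in size take the end colour. Young heart 3 shares the blue of aged hearts 2 and 3 over the PDH complex and the cycle, aged heart 1 is the darkest column, and Pkm, Me2, Acaca, Acly and Akr1a1 are the ones in red.

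Cardiomyocyte markers moved with the members and by more. All 11 markers had negative log2 fold changes, with a median of -3.50, and 5 (45.5%) passed the limits, beside 19.0% of all genes tested that were lower. The mean log2 CPM of the markers was 12.4, 12.5 and 9.63 in young hearts 1, 2 and 3 and 3.88, 8.90 and 8.57 in aged hearts 1, 2 and 3, so the groups did not overlap in it. With this mean as a covariate in edgeR, 0 members were lower past the limits, beside 2.69% of all genes, and 1 was higher, Me3 (log2 fold change 0.97), which was also the only member under an unadjusted p of 0.05. In that fit Acly was not called (log2 fold change 0.52, unadjusted p = 0.168, edgeR), and the median log2 fold change of the members was -0.37. Because the marker level separated the groups by itself, donor age and cardiomyocyte RNA content cannot be told apart in these 6 hearts.

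Other mitochondrial pathways were lower to a like extent. Of 105 tested genes of oxidative phosphorylation 78 were lower and 4 higher (median log2 fold change -1.70), and of 35 tested genes of fatty acid degradation 22 were lower and 1 higher (median -1.75). Glycolysis, which is not a mitochondrial pathway, had 17 of 43 lower and 2 higher (median -0.71). Its list shares genes with the members, Acss1 among them. The 18 genes left out by the rule had 15 tested, 8 lower and a median of -1.82, among them Ldhb, the heart form of lactate dehydrogenase (-2.33, unadjusted p = 0.0772, not called). Over the 25 other genes of regulation, import, lipoate, shuttle and amino acid entry taken from a written list, 15 were lower and 2 higher, with Gpt, the cytosolic alanine aminotransferase, lower by -2.47 and Glud1 and Gpt2 called in neither direction. Beside the counts of these lists, 19.0% of all genes tested were lower and 13.2% higher. No test of the members against these lists was run. With library totals in place of TMM, 21 members (56.8%) were lower, beside 10.5% of all genes, and the members' median of -1.30 stood against a median of 0.46 for all genes.

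**Figure D4:**
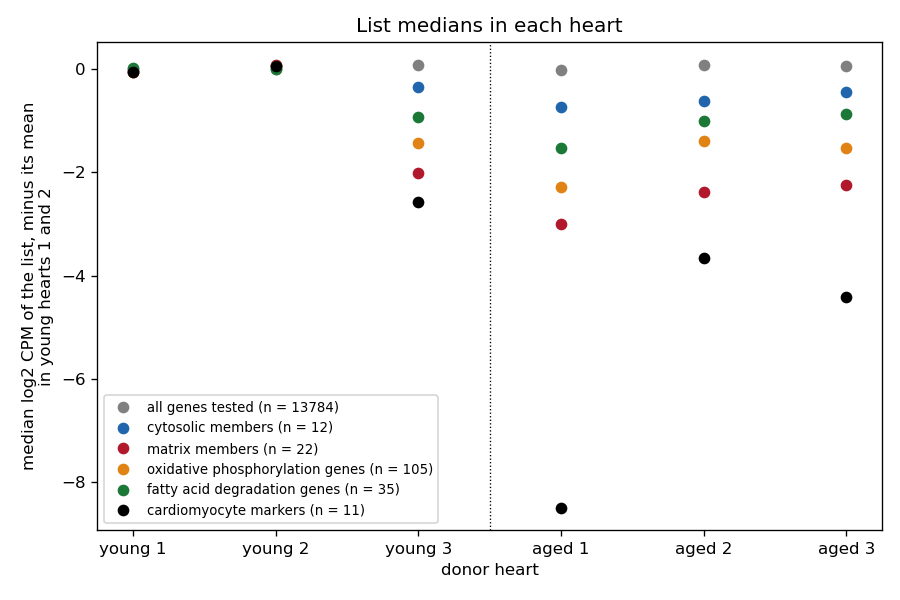
Median log2 CPM of 6 gene lists in each heart, set to 0 at the mean of young hearts 1 and 2. All genes tested stay near 0 in the 6 hearts, matrix members lie lower in young heart 3 and the aged hearts, cytosolic members lie between, and in those 4 hearts the 11 cardiomyocyte markers lie lowest, most of all in aged heart 1.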

How the data were processed

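RNA from the left ventricle of 3 young and 3 aged donor hearts was selected with poly-T beads and sequenced by the authors. The submitters' processing notes name HISAT2 2.0.5, StringTie 1.3.3b, featureCounts 1.5.0-p3, DESeq2 1.16.1 and the build Rnor_6.0; whether counting used strand is not given in the sources used here. The deposited table holds a count and an FPKM value per gene and heart, made by the authors, with KEGG entries. FPKM, which the authors normalized by length and depth, was used only to compare levels between genes.

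Counts were tested across all genes with edgeR 4.0.16 (R 4.3.3; filterByExpr, TMM, glmQLFit and glmQLFTest, no covariate), with p adjusted by Benjamini-Hochberg. DESeq2 1.42.0 and limma 3.58.1 were alternatives. CPM were computed from the counts with TMM factors of 0.733 to 1.24. The limits were a fold change over 1.5 or under 0.67 with an unadjusted p under 0.05. The fold limits and the value of 0.05 are the study's, which does not say whether its p was adjusted. The self-test on simulated counts checked the scripts. Replicate numbers only name the hearts; the closest libraries, young 1 and 2, differed by more than counting error (chi-square of 10.1 per degree of freedom). The labels do not say that each heart is from its own animal, so p-values measure the spread between these samples.

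Members, role groups, marker lists and the 25 other genes were chosen with earlier results of these data known. Values in every heart are given for the 4 members of each role group with the greatest fold change in either direction, every higher member and the 5 with the highest mean FPKM; other genes are named with a level or fold change. Coordinates of genes are those of the deposited table. Promoter sequences are RefSeq's of GRCr8. Counts cover all tested members, but 1 member and 1 of the other genes are not reported here by name.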

Additional observations from a re-analysis of the deposited data

How the results depend on the processing

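The count of lower members (26) was 20 to 30 when each heart was left out in turn, 21 by library totals, 28 with DESeq2, 30 with limma-voom and 0 with the cardiomyocyte marker mean as a covariate, where the median log2 fold change of the members was -0.366; it was -2.211 to -1.505 without 1 heart. In every fit without 1 heart, 18 of the 26 were lower; Acacb, Acyp2, Glo1, Hagh, Idh3g, Pc, Suclg1 and Suclg2 lost the call at least once. The count of higher members (1) was 2 by library totals and with no fold limit, 4 with limma-voom and 1 to 4 without 1 heart, 4 being the count without young heart 3. Members under an adjusted p of 0.05 (0 in edgeR) were 25 with DESeq2, 36 with limma-voom and 0 to 32 without 1 heart, 32 being the count without young heart 3. Members whose groups did not overlap (24 lower) were 19 by library totals and 24 to 31 without 1 heart, alternatives that were chosen after seeing the data. Signs turned with the marker covariate for Acacb (0.29), Acyp1 (0.014), Grhpr (0.254), Me3 (0.969) and Ogdhl (0.101), and by library totals for Aco1 (0.087), Acyp1 (0.055) and Idh1 (0.177). The cause of these changes was not tested. DESeq2 size factors and either filter on low counts kept all 26 lower calls. No paired analysis was possible because the replicate numbers only name the hearts and no label ties a young heart to an aged one. With 3 hearts a group, the exact permutation test of a single gene cannot go below 0.1.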

Other observations

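Several steps of these pathways have a pair of related enzymes, most of them in different compartments. The ratio of their counts per gene length, with 0.5 added to each count, describes the balance within each heart without the scaling between libraries. These pairs were picked after the values had been seen, so the ratios are descriptions with no test. The mitochondrial over the cytosolic NADP-dependent isocitrate dehydrogenase (Idh2 over Idh1) was 43.4, 41.4 and 6.22 in young hearts 1, 2 and 3 and 2.13, 6.84 and 5.49 in aged hearts 1, 2 and 3. In this pair young heart 3 lay inside the aged range.

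The mitochondrial over the cytosolic acetyl-CoA synthetase (Acss1 over Acss2) was 6.46, 5.94 and 0.372 in young and 0.253, 0.364 and 0.601 in aged hearts, so the leading form differed between young hearts 1 and 2 and the other 4. The muscle-type over the lipogenic acetyl-CoA carboxylase (Acacb over Acaca) was 17.2, 16.7 and 2.72 against 0.0517, 1.82 and 1.16, the only one of these pairs without overlap. Mdh2 over Mdh1 went the other way, at 0.838, 0.896 and 1.69 against 1.88, 2.07 and 1.52, since the cytosolic enzyme differed by more than the matrix enzyme. The malic enzymes Me3 over Me2, both of the matrix, stood at 21.6, 24.6 and 0.977 against 0.0163, 0.985 and 0.913.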
